A study of Mus musculus with 30 samples.

Results

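Transcripts of 10 genes of the autophagosome and of mitophagy were followed in mouse muscle: Map1lc3a, Map1lc3b, Gabarapl1, Sqstm1, Bnip3, Bnip3l, Ulk1, Becn1, Atg7 and Tfeb. They were taken by symbol from a table of 47643 genes, and all 10 were listed. The tissue was tibialis anterior, a fast muscle of the lower leg, of male C57BL/6J mice. Bulk RNA sequencing gave 30 libraries in 8 groups. The ageing experiment compared muscle at 24 months (n = 3) with muscle at 6 months (n = 3). Another experiment compared dexamethasone, a synthetic glucocorticoid, with its control (n = 4 each). Mice with LLC cancer were compared with a control of their own (n = 4 each). The last experiment compared siRNAs against Cyr61, which encodes a secreted matricellular protein, with NT siRNAs (n = 4 each). The dose, the duration, the route of the siRNAs and the ages of the mice in the 3 experiments other than ageing were not given in the sources used here. No label names a genotype beyond the strain. The extraction text refers to an account of UBR4 mKO muscle at these 2 ages for the sequencing, and whether any library carries that deletion was not given either.

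Autophagy encloses cytoplasm in a double membrane and delivers it to the lysosome. A kinase complex around ULK1 starts the membrane, a lipid kinase complex with beclin 1 marks it, and ATG7 drives the attachment of small proteins of the ATG8 family (the LC3 and GABARAP proteins) to it. Receptors then bring cargo to those proteins: p62, the product of Sqstm1, carries ubiquitinated protein, and BNIP3 and BNIP3L (NIX) on the mitochondrial surface carry mitochondria. TFEB is a transcription factor that drives genes of autophagy and the lysosome. In muscle the pathway is best known for protein breakdown during fasting, disuse and glucocorticoid excess.

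Values are TPM, a transcript level that divides reads by gene length and sets each library's sum to 1000000. A gene that takes a large share therefore lowers all others. Mitochondrially encoded genes took 37.9 ± 3.17% of TPM after dexamethasone and 48.7 ± 2.09% in its control (SD, n = 4 each). In the other experiments the group means lay between 45.9% and 51.0%. For that reason the counts of members called, and many single differences, are also given after median-of-ratios scaling. It sets the typical gene level between libraries, and its values are called scaled. Skeletal muscle fibre markers (9 genes, none at 0) summed to at least 68145 TPM in every library. The library LLC 3 stood apart from the other LLC libraries. Its mitochondrial share was 60.4%, and its glucocorticoid-responsive gene Fkbp5 was at 7.30 TPM against a group mean of 26.3 ± 12.9 (SD, n = 4). Its red cell markers summed to 717 TPM, within the 622 to 792 TPM of the LLC control, whereas LLC 1, LLC 2 and LLC 4 reached 7810, 6090 and 2158 TPM. The members called under LLC are given with and without it, and most other LLC results with it only.

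The reads behind the members were many. Recovered from the steps of the TPM values, they ran from 180 (Atg7) to 30718 (Sqstm1) per gene and library. Counting error alone was 7.45% at the lowest Atg7 value and at most 2.87% at the lowest value of each other gene. How reads shared with near-identical gene copies were assigned was not given in the sources used here.

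The stretch before the transcription start is shown for Map1lc3b, Gabarapl1 and Bnip3, because these 3 are among the 4 members with the highest scaled differences under LLC and have an entry among the RefSeq promoters (GRCm38.p6), where 7 of the 10 members were found. Map1lc3a, Bnip3l and Becn1 were not among them. Each stretch is 170 bases long, from position -250 to position -81 before the start, on the gene's own strand. Capitals mark ATAAACA, a core bound by forkhead factors, in Gabarapl1, and CACGTG, the E-box core that contains ACGTG of the hypoxia response element, in Bnip3. Map1lc3b lies at chr8:121590188-121590357 (plus strand), Gabarapl1 at chr6:129532942-129533111 (plus strand) and Bnip3 at chr7:138909587-138909756 (minus strand).

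Map1lc3b: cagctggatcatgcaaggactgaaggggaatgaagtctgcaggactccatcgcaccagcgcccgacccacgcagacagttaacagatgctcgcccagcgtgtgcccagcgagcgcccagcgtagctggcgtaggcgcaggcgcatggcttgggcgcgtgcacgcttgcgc
Gabarapl1: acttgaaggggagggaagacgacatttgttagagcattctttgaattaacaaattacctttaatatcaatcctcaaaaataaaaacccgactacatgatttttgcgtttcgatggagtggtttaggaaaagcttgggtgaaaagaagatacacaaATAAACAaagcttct
Bnip3: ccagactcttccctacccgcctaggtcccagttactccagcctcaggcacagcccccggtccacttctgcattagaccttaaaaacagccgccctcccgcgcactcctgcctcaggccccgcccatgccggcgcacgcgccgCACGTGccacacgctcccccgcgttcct

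Searched on both strands of windows of 300 bases, from 250 before to 50 after the start, ATAAACA was found in 4.60% of 32851 RefSeq promoters, GTAAACA in 3.65%, ACGTG in 19.6% and CACGTG, which contains it, in 7.15%. TCACGTGA, the CLEAR element read by TFEB, was found in 0.974%, and the palindromic glucocorticoid response element in 0.00913%. Among the 7 members with an entry, ATAAACA was found in Gabarapl1 at position -95, and CACGTG (with its ACGTG on both strands) in Bnip3 and Atg7. The Atg7 entry, chr6:114670846-114671145, lies inside the annotated gene and not at its 5' end. No member's entry held GTAAACA, TCACGTGA or the glucocorticoid response element. The entries of Map1lc3b, Sqstm1, Ulk1 and Tfeb held none of the motifs. They were picked for factors known in muscle wasting and autophagy, and a match describes letters and not a bound site.

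On mm10 the ATG8 genes lie at chr2:155276297-155278073 (Map1lc3a, plus strand), chr8:121590361-121598760 (Map1lc3b, plus) and chr6:129533160-129542346 (Gabarapl1, plus). The receptor genes lie at chr11:50199366-50210827 (Sqstm1, minus), chr7:138890836-138909519 (Bnip3, minus) and chr14:66985239-67008877 (Bnip3l, minus). Ulk1 lies at chr5:110784488-110810097 (minus), Becn1 at chr11:101285952-101302286 (minus), Atg7 at chr6:114643097-114860614 (plus) and Tfeb at chr17:47737030-47792419 (plus). Each gene has 1 value, and all 10 are protein-coding. For Map1lc3b and Atg7 the TPM steps gave whole reads at lengths of 5184 and 5273 bases. All their annotated exons sum to 7517 and 6968 bases.

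Levels differed widely between the members. TPM is per length, so the order of the members depends on the gene length used. That length was 1181 bases for Map1lc3a and 5184 for Map1lc3b, with medians of 7513 and 8608 reads per library. Map1lc3a, which encodes the LC3A protein, had the highest TPM, with group means from 232 to 625. Sqstm1 followed with 203 to 356 TPM and Bnip3 with 125 to 231 TPM. In the 6 groups without siRNA, Map1lc3b (55.5 to 85.8 TPM) exceeded Gabarapl1 (36.1 to 63.4 TPM). With siRNA, Gabarapl1 was at 109 and 108 TPM and Map1lc3b at 101.3 and 86.9 TPM. Bnip3l had 29.99 to 43.8 TPM, Ulk1 21.0 to 33.8 TPM, Tfeb 13.1 to 21.4 TPM and Becn1 13.4 to 20.3 TPM. Atg7, the activating enzyme of ATG8 conjugation, had the lowest values at 2.51 to 4.72 TPM.

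**Figure D1:**
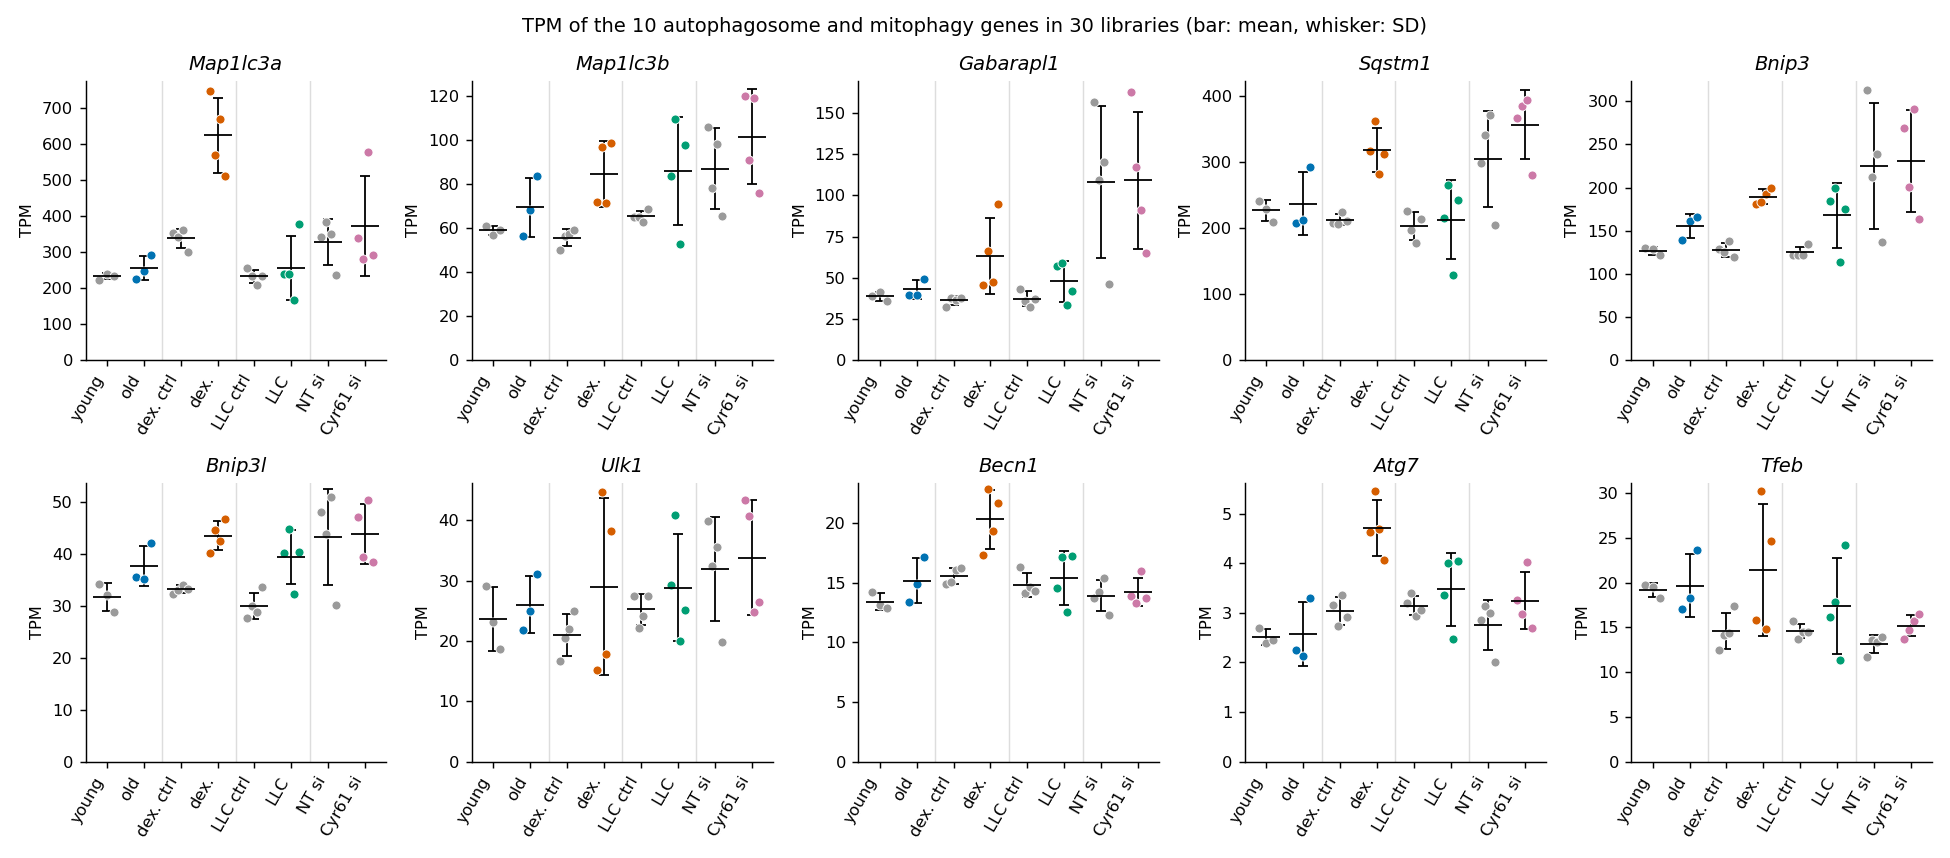
TPM of the 10 genes (1 panel each, y axes from 0) in the 30 libraries by group. Points are libraries, bars are group means and whiskers are SDs; Map1lc3a and Atg7 have their highest group mean after dexamethasone, and Gabarapl1 and Bnip3 in the siRNA groups.

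The order of the groups fell into 2 patterns. Map1lc3a, Becn1, Atg7 and Tfeb had their highest mean after dexamethasone. The other 6 genes had theirs with Cyr61 siRNA, followed by NT siRNA (Map1lc3b, Gabarapl1, Bnip3 and Ulk1) or dexamethasone (Sqstm1 and Bnip3l). Gabarapl1 had 109 ± 41.9 TPM with Cyr61 siRNA and 108 ± 46.1 with NT siRNA against 36.1 ± 2.76 in the dexamethasone control (SD, n = 4 each). Neighbours in these orders mostly overlapped. The exceptions were dexamethasone above the next group for Becn1 and Atg7, old above the dexamethasone control for Bnip3 and Bnip3l, and the LLC control above young for Map1lc3b. Experiments were set side by side here and not tested against each other, since they share no control.

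After dexamethasone, transcripts of the autophagosome coat, its cargo receptors and its conjugation enzyme were higher on TPM. limma called 8 of the 10 members higher at an adjusted p under 0.05 and none lower. The same fit called 35.9% of all genes higher and 37.4% in either direction. Map1lc3a led with a log2 difference of 0.87 ± 0.13 (SE, adjusted p = 0.00225). The median gene was itself 0.33 higher on the log2 scale, and Map1lc3a lay 0.54 above it. On scaled values limma called 0 of the 10, against 9.13% of all genes (4.39% higher), and 1 member had an unadjusted p under 0.05. On TPM 8 members had groups without overlap, all higher, against 34.3% of all genes, and on scaled values 1 member had (8.70% of all genes). Fewer cells of a type and less RNA per cell cannot be told apart in bulk muscle.

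The ATG8 members carried the largest differences. Map1lc3a measured 747, 571, 672 and 511 TPM in the 4 dexamethasone libraries and 352, 341, 361 and 301 TPM in the control. Every treated library lay above every control library, and this held after scaling (432 to 807 against 325 to 426), where the log2 difference was 0.50 ± 0.20 (SE, adjusted p = 0.164). Gabarapl1, a GABARAP-family gene, measured 45.4, 66.1, 47.1 and 95.0 TPM against 32.1, 37.9, 36.7 and 37.9 TPM. Its rise of 0.73 ± 0.21 (SE, adjusted p = 0.0229) passed with dexamethasone 4 as the highest library, and after scaling the groups overlapped. The call was lost without dexamethasone control 1 (adjusted p = 0.0661) or control 2 (adjusted p = 0.0551). Map1lc3b, the LC3B gene used as the standard autophagosome marker, measured 71.6, 96.6, 71.4 and 98.6 TPM against 49.97, 56.3, 57.2 and 58.8 TPM. It rose by 0.58 ± 0.13 (SE, adjusted p = 0.0100), and its 2 highest libraries were dexamethasone 2 and 4, not the 2 that were highest for Map1lc3a. The scaled difference of Map1lc3b was 0.22 ± 0.11 (SE, adjusted p = 0.240), with groups that overlapped.

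Of the cargo receptors, Sqstm1 measured 317, 362, 281 and 312 TPM after dexamethasone and 208, 205, 224 and 211 TPM in the control. The groups did not overlap on TPM, and the rise was 0.58 ± 0.10 (SE, adjusted p = 0.00359). On scaled values they overlapped, with a difference of 0.21 ± 0.12 (SE, adjusted p = 0.346). Bnip3 measured 181, 183, 192 and 199.7 TPM against 128, 125, 138 and 119.6 TPM, a rise of 0.56 ± 0.09 (SE, adjusted p = 0.00253). The spread was narrow in both groups on TPM. Scaled, Bnip3 ran from 139 to 196 against 129 to 155, with a difference of 0.20 ± 0.12 (SE, adjusted p = 0.383). Bnip3l measured 40.2, 44.6, 42.5 and 46.6 TPM against 32.2, 33.1, 34.0 and 33.3 TPM. It rose by 0.38 ± 0.09 (SE, adjusted p = 0.0112), close to the median gene, and its scaled difference was 0.02. The ratio of Bnip3 to Bnip3l within a library, chosen after the values were seen and not tested, ran from 4.11 to 4.53 after dexamethasone and from 3.59 to 4.07 in the control.

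The initiation and conjugation genes were less uniform. Atg7 measured 4.64, 5.45, 4.70 and 4.07 TPM against 3.16, 2.73, 3.36 and 2.91 TPM, and rose by 0.50 ± 0.12 (SE, adjusted p = 0.0118). Its scaled difference was 0.21 ± 0.10 (SE, adjusted p = 0.261). Becn1, the beclin 1 gene, measured 17.3, 22.8, 19.3 and 21.7 TPM against 14.9, 15.1, 16.01 and 16.2 TPM. Its rise of 0.36 ± 0.11 (SE, adjusted p = 0.0298) equalled that of the median gene to within 0.03. It was no longer called when any 1 library other than dexamethasone 1 was left out (adjusted p from 0.0507 to 0.0878), and its scaled difference was 0.01. Ulk1, the initiating kinase, measured 15.2, 44.7, 17.8 and 38.3 TPM against 16.6, 20.5, 22.0 and 25.0 TPM. Dexamethasone 2 and 4 lay above all controls and dexamethasone 1 lay below them, so that the difference of 0.32 did not pass (adjusted p = 0.386). Tfeb measured 15.9, 30.2, 14.8 and 24.6 TPM against 12.5, 14.2, 14.4 and 17.4 TPM. Again libraries 2 and 4 stood above the control and 1 and 3 within it, with a difference of 0.47 that did not pass (adjusted p = 0.0943). Tfeb did pass without dexamethasone 1 (0.59, adjusted p = 0.0352), a fit in which 70.0% of all genes were called higher. The scaled differences were 0.12 for Tfeb (adjusted p = 0.712) and -0.035 for Ulk1 (adjusted p = 0.956).

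The 4 dexamethasone libraries thus split in pairs for several members. On TPM libraries 2 and 4 were the higher pair for Ulk1, Tfeb, Gabarapl1, Map1lc3b, Bnip3l and Becn1, and libraries 1 and 3 for Map1lc3a. After scaling the same pairs remained for Ulk1, Tfeb, Gabarapl1 and Map1lc3a. The mitochondrial share was 41.5% and 39.2% in libraries 1 and 3 and 34.0% and 37.0% in libraries 2 and 4. Marker sums of other cells differed between the same pairs. Neutrophil markers (5 genes, 1 of them at 0 in the group) summed to 77.5 and 87.1 TPM in libraries 1 and 3 and to 12.1 and 23.0 TPM in libraries 2 and 4. Macrophage markers (11 genes, none at 0) summed to 1713 and 2729 TPM in libraries 1 and 3, to 1256 and 1130 TPM in libraries 2 and 4, and to 329 to 562 TPM in the control. Slow-fibre markers (7 genes, none at 0) summed to 228 to 363 TPM against 70.7 to 145 TPM. The part of these cells, fibres and shares in the results for the members was not tested.

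**Figure D2:**
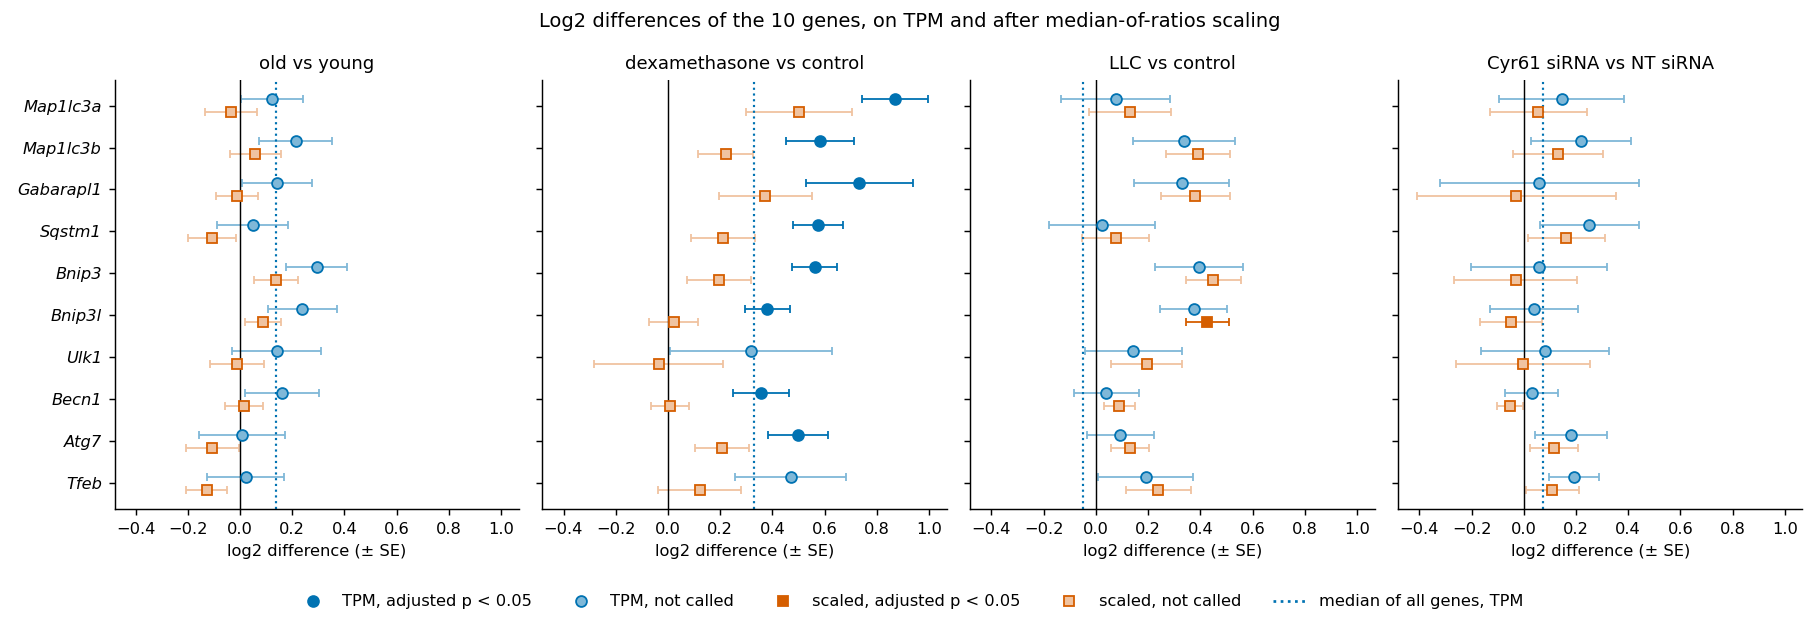
Log2 differences of the 10 genes with SE bars in the 4 comparisons, on TPM (circles) and after scaling (squares), filled darkly where the adjusted p was under 0.05. The dotted line is the median of all genes on TPM; after dexamethasone 8 circles and no square are dark, and under LLC the square of Bnip3l is.

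Other genes of the pathway were read from 9 lists that sort them by step. Of the 99 genes on them that are no members, 51 were called higher after dexamethasone and 0 lower on TPM, beside 35.9% of all genes called higher. The lysosomal targets of TFEB, described below, made up 22 of these 51. After scaling 2 of the 99 were called higher, beside 4.39% of all genes. On TPM, with the members counted in, all 5 ATG8 genes were higher, among them Gabarap (156 ± 21.9 against 104 ± 8.73 TPM, SD, n = 4 each). Of 11 cargo receptors 7 were higher, including Tax1bp1 (20.8 ± 1.49 against 14.6 ± 0.44 TPM) and Nbr1 (37.3 ± 5.06 against 25.2 ± 1.92 TPM), which like p62 bind ubiquitin. The core machinery had smaller shares, beside 35.9% of all genes: 3 of 8 initiation genes, 5 of 15 nucleation genes, 4 of 11 conjugation genes, 5 of 13 mitophagy genes and 4 of 13 fusion genes. Atg3, the conjugating enzyme downstream of ATG7, was at 15.6 ± 0.66 against 11.7 ± 0.30 TPM. Uvrag, a partner of beclin 1, was at 4.36 ± 0.54 against 2.85 ± 0.12 TPM.

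The lysosomal targets of TFEB had the highest share of the larger lists. Of 23 tested, 22 were called higher, beside 35.9% of all genes, with a median 0.30 above the median gene on the log2 scale. Macrophage markers summed to 1707 ± 726 TPM after dexamethasone and to 441 ± 111 TPM in the control (SD, n = 4 each). Their part in the results for this list was not tested. Ctsd, an aspartic protease, went from 452 ± 31.8 to 801 ± 96.3 TPM. Lamp1, the lysosomal membrane protein, went from 323 ± 14.4 to 468 ± 24.2 TPM (SD, n = 4 each). After scaling the list's median was 0.27 above the median gene. Then 2 of 23 were called higher, beside 4.39% of all genes: Ctsl (cathepsin L, adjusted p = 0.0150) and Gla (alpha-galactosidase, adjusted p = 0.0314). Of 10 regulators and relatives of TFEB 4 were called higher on TPM, beside 35.9% of all genes, and 0 after scaling. Among the 4 were the GTPase genes Rragc (22.4 ± 2.15 against 15.1 ± 0.83 TPM) and Rragd (109 ± 29.5 against 73.9 ± 4.04 TPM).

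**Figure D3:**
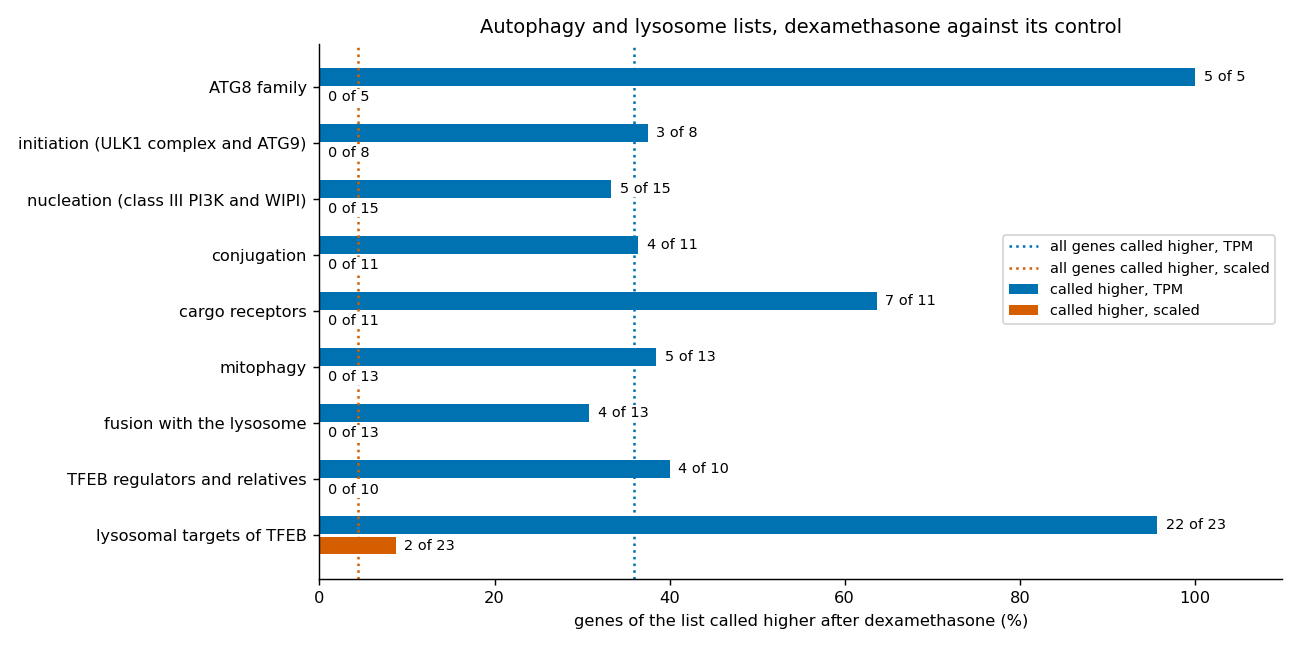
Percent of each pathway list called higher after dexamethasone, on TPM and after scaling, with the counts beside the bars. Dotted lines mark the percent of all genes called higher; on TPM the ATG8 list (5 of 5) and the lysosomal targets (22 of 23) lie farthest to the right.

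Under LLC, the mitophagy receptors and 2 ATG8 genes had the highest positions among the members, but no member passed on TPM. limma called 0 of 10, against 1.18% of all genes in either direction and 0.295% higher, and 2 members had an unadjusted p under 0.05. On TPM the 2 groups overlapped for all 10, whereas 7.63% of all genes had groups that did not. On scaled values 1 member was called higher, against 3.27% of all genes called and 1.69% called higher. That member was Bnip3l (0.43 ± 0.08, SE, adjusted p = 0.0294). Without LLC 3, Bnip3 (adjusted p = 0.0159), Map1lc3b (adjusted p = 0.0281) and Bnip3l (adjusted p = 0.0351) were called higher on TPM, and 2.06% of all genes were. On scaled values without LLC 3, a fit chosen after the data were seen, the same 3 members were called higher, and 270 of 10993 genes were.

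Bnip3 measured 184, 199, 114 and 175 TPM in the LLC libraries and 121, 121, 122 and 134 TPM in the control. The 3 libraries other than LLC 3 lay above every control library and LLC 3 below them. Its log2 difference was 0.40 ± 0.17 (SE, adjusted p = 0.337), and 97.4% of all genes had a lower one. Scaled, it measured 189, 181, 140.3 and 163 against 112, 120.2, 126 and 131. These groups did not overlap, and the scaled difference was 0.45 ± 0.11 (SE, adjusted p = 0.0507). Of all genes, 6.77% had scaled values without overlap in the higher direction, and 2 members did.

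Bnip3l was the other. It measured 40.2, 44.7, 32.2 and 40.3 TPM against 27.7, 29.99, 28.7 and 33.5 TPM, a difference of 0.37 ± 0.13 (SE, adjusted p = 0.214). After scaling the LLC libraries drew together at 41.2, 40.5, 39.8 and 37.6 against 25.6, 29.7, 29.6 and 32.8. LLC 3 then lay among its group. The scaled call did not hold in 5 of 8 fits with 1 library left out: without LLC 1 (adjusted p = 0.0714), LLC 2 (0.0657), control 2 (0.0737), control 3 (0.0830) or control 4 (0.0551). The difference stayed between 0.36 and 0.48 in all 8 of them.

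Map1lc3b measured 83.5, 109.6, 52.4 and 97.6 TPM against 64.95, 64.99, 62.8 and 68.4 TPM. LLC 3 was again the lowest of the 8 libraries and the other LLC libraries were the highest, with a difference of 0.34 ± 0.20 (SE, adjusted p = 0.512) that became 0.55 without LLC 3. Gabarapl1 measured 57.0, 59.2, 33.2 and 42.0 TPM against 43.1, 35.9, 32.4 and 37.0 TPM (0.33 ± 0.18, SE, adjusted p = 0.485). The scaled differences were 0.39 ± 0.12 for Map1lc3b (SE, adjusted p = 0.117) and 0.38 ± 0.13 for Gabarapl1 (SE, adjusted p = 0.144). Sqstm1 measured 214, 264, 129 and 242 TPM against 225, 196, 177 and 212 TPM. LLC 2 and LLC 4 lay above every control library and LLC 3 below them, with a difference of 0.02. Map1lc3a, the leading gene after dexamethasone, measured 239.8, 238, 165 and 379 TPM against 255, 233, 209 and 233 TPM, with LLC 4 above and LLC 3 below all control libraries (0.08, adjusted p = 0.935). Becn1, Atg7, Ulk1 and Tfeb differed by 0.04 to 0.19, with adjusted p from 0.744 to 0.945.

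Ratios within a library need no scaling. Those shown were picked from a larger set after the values were seen, and none was tested. The ratio of Bnip3 to Sqstm1 was 0.861, 0.755, 0.882 and 0.720 under LLC and 0.539, 0.619, 0.690 and 0.630 in the control, without overlap and with LLC 3 the highest. The ratio of Bnip3l to Becn1 was 2.77, 2.61, 2.56 and 2.34 against 1.70, 2.13, 1.97 and 2.34, where LLC 4 and control 4 met. After dexamethasone both ratios overlapped with the control (0.506 to 0.686 against 0.568 to 0.617 for Bnip3 to Sqstm1, and 1.95 to 2.32 against 2.05 to 2.19 for Bnip3l to Becn1). The ratio of Bnip3 to Becn1 overlapped under LLC (9.03 to 12.7 against 7.44 to 9.36 in the control). Red cell markers (7 genes) were high in LLC 1, LLC 2 and LLC 4 and not in LLC 3, as given above, and their part in the results for Bnip3 and Bnip3l was not tested. Neutrophil markers summed to 33.9 to 91.7 TPM under LLC and to 0.971 to 88.8 TPM in the control, whose library 2 was the high one, and their part was likewise not tested.

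**Figure D4:**
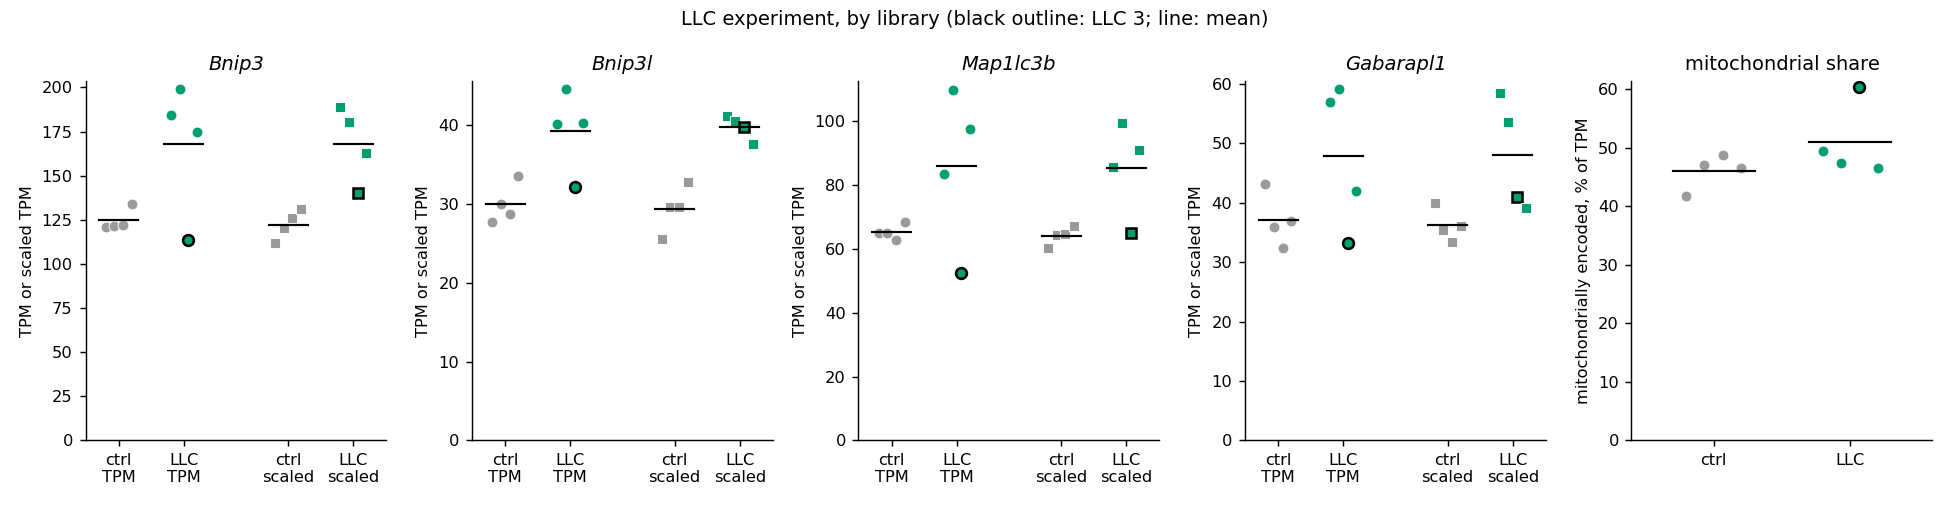
Bnip3, Bnip3l, Map1lc3b and Gabarapl1 in the 8 LLC-experiment libraries on TPM and after scaling, and the mitochondrial share of TPM in percent. Lines are means and the black outline marks LLC 3, which is lowest among LLC libraries on TPM in the 4 gene panels and highest in mitochondrial share (60.4%).

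Of the other 99 pathway genes, 0 were called under LLC on TPM. After scaling 2 of the 99 were called higher, a share near the 1.69% of all genes. They were Wdr45, a phosphoinositide-binding WIPI-family gene (0.35, adjusted p = 0.0424), and Pik3c3, the catalytic subunit of the lipid kinase (0.27, adjusted p = 0.0474). The lysosomal targets of TFEB lay at the median gene (median 0.01 above it on TPM, 0 of 23 called).

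With age, no member passed. limma called 0 of 10 on TPM, against 0.171% of all genes, and 1 member had an unadjusted p under 0.05. On scaled values it called 0 of 10 and 0 of all genes, and 1379 of all genes and no member had an unadjusted p under 0.05. Bnip3 measured 139, 161 and 166 TPM at 24 months and 129, 128 and 121 TPM at 6 months. All 3 old libraries lay above the young ones, with a difference of 0.29 ± 0.12 (SE, adjusted p = 0.386). Bnip3l measured 35.6, 35.1 and 42.1 TPM against 34.2, 32.1 and 28.8 TPM, again without overlap, with a difference of 0.24 ± 0.13 (SE, adjusted p = 0.504). Groups did not overlap in either direction for 16.2% of all genes, and they did not for these 2 of the 10 members.

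The other 8 members overlapped between ages. Map1lc3b measured 56.4, 68.2 and 83.3 TPM in old and 60.9, 56.7 and 59.2 TPM in young muscle. Old 3 was the highest library of this experiment for Map1lc3b, as it was for Map1lc3a, Gabarapl1, Sqstm1, Bnip3, Bnip3l, Ulk1, Becn1, Atg7 and Tfeb. Its mitochondrial share, at 43.7%, was the lowest of the 6 libraries, and whether this sets the order was not tested. The median gene was 0.14 higher in old muscle, and the median of the members was also 0.14. After scaling Bnip3l alone had groups without overlap (20.8% of all genes did), and Map1lc3a, Gabarapl1, Sqstm1, Ulk1, Atg7 and Tfeb had differences below 0, from -0.01 to -0.13. Of the 99 other pathway genes limma called 0 with age on either scale.

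Knockdown was checked first in the siRNA experiment. Cyr61 measured 32.9, 52.8, 45.8 and 25.5 TPM with Cyr61 siRNA and 57.0, 64.6, 67.8 and 36.8 TPM with NT siRNA. The groups overlapped on TPM, since NT siRNA 4 lay below 2 of the Cyr61 siRNA libraries. The difference of -0.53 ± 0.25 (SE) did not pass in limma (adjusted p = 0.999, unadjusted p = 0.0626). On scaled values it was -0.62 ± 0.22 (SE), with an unadjusted p of 0.0232, and did not pass after adjustment (adjusted p = 0.9999). No member passed either: limma called 0 of 10 and 0% of all genes on both scales. At an unadjusted p under 0.05 stood 109 genes and 0 members on TPM, and 184 genes and 0 members on scaled values. The groups overlapped for all 10 members, while 0.990% of all genes had groups that did not. The absence of calls therefore comes from a comparison whose target did not itself pass after adjustment.

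Within that limit the members were spread widely inside each group. Gabarapl1 measured 163, 118, 90.9 and 64.99 TPM with Cyr61 siRNA and 157, 109.6, 120.4 and 46.2 TPM with NT siRNA. Bnip3 measured 269, 200.3, 291 and 163 TPM against 314, 212, 239 and 136 TPM. In both genes library 4 was the lowest of its group, and the spread within a group was larger than the difference between groups (0.06 for each). Sqstm1 had the largest difference, 0.25 ± 0.19 (SE), with 367, 385, 393 and 279.7 TPM against 298, 340.5, 371 and 205 TPM. Becn1 varied less, at 13.9, 13.3, 15.99 and 13.7 TPM against 13.7, 14.2, 15.4 and 12.3 TPM. NT siRNA 4 was the lowest of its group for 9 of the 10 members, and its mitochondrial share was the highest of the group at 57.2%.

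The responses were then compared with each other in 1 fit of the 22 libraries of the age, dexamethasone and LLC experiments, whose controls are separate. Between dexamethasone and LLC, 1 of 10 members differed on TPM, against 27.6% of all genes. That was Map1lc3a, whose response to dexamethasone exceeded that to LLC by 0.79 ± 0.24 (SE, adjusted p = 0.0229), where the median gene differed by 0.37. With 1 library left out, the Map1lc3a difference stayed called in all 16 fits, the fit without LLC 3 among them. It ran from 0.61 to 1.00 there (limma, highest adjusted p = 0.0498). On scaled values the Map1lc3a difference was 0.36 (adjusted p = 0.448) and no longer passed. Bnip3l then differed the other way, with a response to dexamethasone lower than that to LLC by a difference of -0.41 ± 0.11 (SE, adjusted p = 0.0240), where 6.29% of all genes were called and 2.85% were called lower. On TPM the same Bnip3l difference was 0.01 and did not pass, because the 2 responses were 0.38 and 0.37. The scaled call was lost without dexamethasone control 1 (adjusted p = 0.0502) or control 2 (adjusted p = 0.0531). On TPM, leaving out LLC 2 added Sqstm1 (adjusted p = 0.0298), beside 34.3% of all genes called in that fit. Leaving out LLC 4 added Sqstm1 and Atg7 (adjusted p = 0.0424 and 0.0474), beside 35.0% of all genes. Leaving out dexamethasone 1 added Becn1 (adjusted p = 0.0371), beside 55.1% of all genes. The 2 or 3 members called of 10 were no larger a share than that of all genes in these fits.

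Dexamethasone and age differed for 0 of 10 members on TPM (2.06% of all genes), with 3 members at an unadjusted p under 0.05. Map1lc3a had the largest of these differences at 0.75 ± 0.26 (SE, adjusted p = 0.164). LLC and age differed for 0 of 10 (0.0484% of all genes), with 0 members at an unadjusted p under 0.05.

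Across the 30 libraries the members formed groups that partly cut across their roles. Scaled log2 values were set relative to the mean of their experiment, so that libraries share their experiment's treatment effect, and Pearson's r is given as a description. Bnip3 and Bnip3l went together (r = 0.85), and Map1lc3b went with Bnip3 (r = 0.81), Gabarapl1 (r = 0.70) and Bnip3l (r = 0.67). Sqstm1 went with Atg7 (r = 0.77) and Map1lc3a with Atg7 (r = 0.76). Gabarapl1 went with Ulk1 (r = 0.71). Map1lc3a and Ulk1 had r = -0.47, the lowest of all pairs, and the LC3 genes Map1lc3a and Map1lc3b had r = 0.39.

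**Figure D5:**
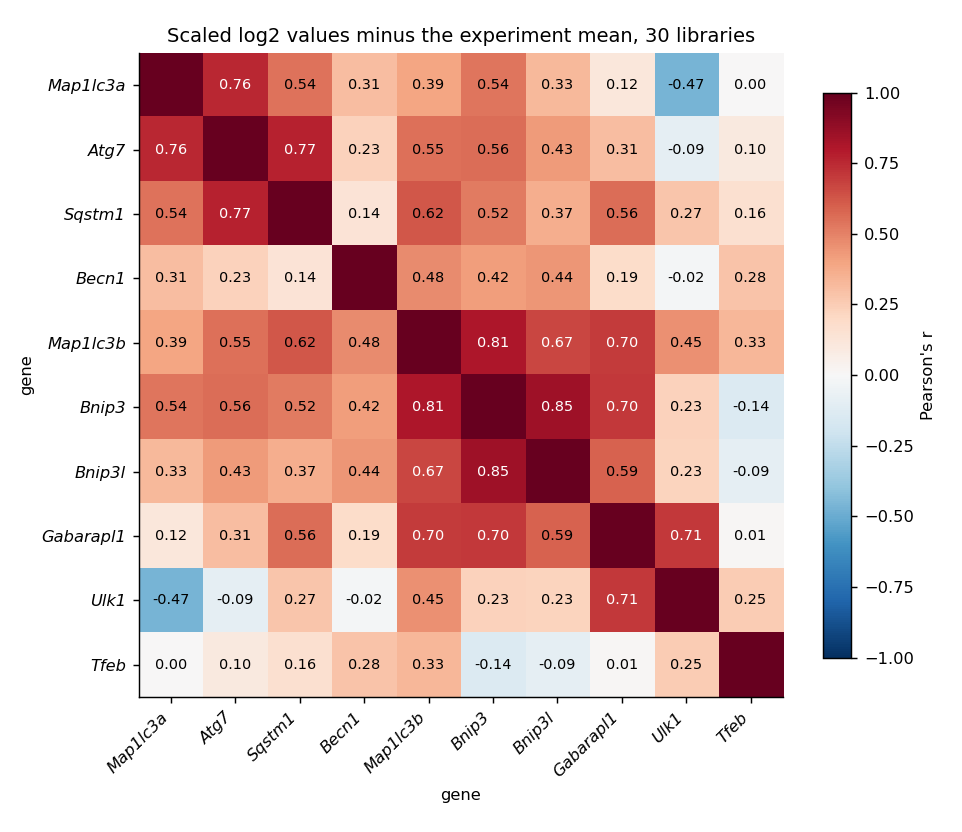
Pearson's r between the 10 genes over 30 libraries, from scaled log2 values relative to the experiment mean (colour from -1 to 1, number in each cell). Map1lc3b, Bnip3, Bnip3l and Gabarapl1 form a block with r from 0.59 to 0.85, Map1lc3a, Atg7 and Sqstm1 another with r from 0.54 to 0.77, and the highest r of Tfeb is 0.33.

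Among all genes with a mean of at least 5 TPM, the nearest to each called member were sought by the same measure over the same 30 libraries, out of 6713 genes (6714 for Atg7). Gabarapl1 was nearest to Trim63 (r = 0.92), the MuRF1 ubiquitin ligase of atrophy, and to Mafk (r = 0.90). Sqstm1 was nearest to Psmd4 (r = 0.92) and Psmd2 (r = 0.87), both subunits of the proteasome cap. Atg7 was nearest to the lysosomal protease gene Ctsd (r = 0.85) and to Psmd2 (r = 0.85). Bnip3 was nearest to Fam134b (r = 0.87), a receptor for autophagy of the endoplasmic reticulum, and to Stom (r = 0.85). Bnip3l was nearest to Bnip3 itself and to Eif4a2 (r = 0.84), Map1lc3b was near to Prpf6 (r = 0.86), a splicing factor gene, and Map1lc3a was nearest to the lysyl-tRNA synthetase gene Kars and the ribosomal gene Rps18 (r = 0.87 each). Becn1 had no close neighbour, with Tprgl and Fam213a at r = 0.70.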

How the data were processed

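RNA was measured in tibialis anterior muscle in 30 libraries that the labels call biological replicates. Whether each came from its own animal is not stated, so p-values measure the spread between these samples. The deposited table holds TPM per gene symbol, made by the authors on mm10 (per the submitters' processing notes). The aligner, the counting and its strand setting were not given in the sources used here. Libraries were stranded mRNA libraries, per the labels' protocols. Gene coordinates and exon lengths came from GENCODE (mm10).

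Groups followed the labels. Genes were kept where at least 1 TPM was reached in a number of libraries equal to the size of the smaller group, and tested as log2(TPM + 1) (pseudocount of 1) with limma 3.58.1 in R 4.3.3, with a variance trend, two-sided, Benjamini-Hochberg adjusted over all genes tested and called under 0.05. Differences in TPM of low genes are understated by the pseudocount. The fit was tested on simulated data. Differences between responses were interaction contrasts in 1 fit of 22 libraries. Alternatives were median-of-ratios scaling, rescaling without mitochondrial and the top 20 genes, other pseudocounts (0.1, 0.5), a 5 TPM filter or none, all groups in 1 fit, a replicate block and leaving out each library. Whole reads of the members were recovered from the TPM steps with a tolerance of 0.1 read. For 8 members the summed exon length gave whole reads, and for Map1lc3b and Atg7 the shortest length that did was taken.

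The members and lists were chosen with earlier results of these data known. Named were the 10 members, up to 3 called genes of each list with the smallest adjusted p, and for each called member the 2 genes with the highest r, of which 1 is not reported here. Bnip3:Sqstm1 and the other ratios, and the motifs, were chosen after the data were seen.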

Additional observations from a re-analysis of the deposited data

Results flagged for a closer look

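Of 60 groups of 4 libraries tested over the 10 genes for a library far from the rest of its group, 1 was marked, and chance marks about 1 in 20 groups (5%), or 3 here. It was Bnip3 in the LLC control, where library 4 had 133.9 TPM and the other 3 libraries had 121 to 122 TPM. The library lies on the side of the LLC group, so it narrows the difference between the groups.

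The response of Map1lc3a differed between dexamethasone and LLC by 0.7938 on the log2 scale (limma, adjusted p = 0.0229). Its means were 625 against 339 TPM in the first experiment and 255 against 232 TPM in the second. With 1 library left out the difference ran from 0.606 to 1.004 (limma, highest adjusted p = 0.0498). It was 0.365 and did not pass after median-of-ratios scaling (adjusted p = 0.448).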

How the results depend on the processing

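The number of members called after dexamethasone, 8 on TPM, was 0 after median-of-ratios scaling and 6 to 9 with 1 library left out. After rescaling without mitochondrial and top genes it was 1, Map1lc3a. For LLC, 0 became 1, 2 and, without LLC 3, 3 (0 to 3 over all libraries left out). The 2 after rescaling were Bnip3 and Bnip3l (limma, adjusted p = 0.0417 and 0.0311). For dexamethasone minus LLC, 1 stayed 1 under both rescalings but was then Bnip3l in place of Map1lc3a, and it was 1 to 3 with 1 library left out. The counts for age, the siRNAs, dexamethasone minus age and LLC minus age stayed at 0 under every alternative run. With all groups in 1 fit 9 members and 6433 of all genes were called after dexamethasone. Other pseudocounts and filters changed no count of members, except that Atg7 fell below the filter of 5 TPM, which left 7 called of 9 after dexamethasone.

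Counts over all genes moved more. After dexamethasone 4470 were called, 1093 after scaling, 1124 after rescaling and 1918 to 8715 with 1 library left out. For LLC 128 were called, 353 after scaling and after rescaling, 8 with no filter, 81 above 5 TPM and 19 to 361 with 1 library left out. For age 18 were called, 0 after scaling, rescaling or with no filter, 12 above 5 TPM, 5 with all groups in 1 fit and 0 to 274 with 1 library left out. For dexamethasone minus LLC 3416 were called, 763 after scaling, 760 after rescaling and 1700 to 6808 with 1 library left out. Against age, 255 were called for dexamethasone (82 above 5 TPM, 469 with no filter) and 6 for LLC (2 above 5 TPM, 30 with the replicate block). Leaving out 1 library gave 139 to 392 and 4 to 36. The block with scaling, added after the data were seen, gave 475 and 54. Higher and lower calls were 4290 and 180 after dexamethasone on TPM and 525 and 568 when scaled, and 32 and 96 for LLC on TPM and 183 and 170 when scaled.

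Same-numbered libraries did not deviate together in every pair in any experiment (lowest r from 0.03 to 0.09), so the numbers are not taken as pairs. Some pairs did, with r = 0.50 for number 1 of the siRNAs and for number 4 of dexamethasone. With the replicate block 634 genes and 3 members of the siRNA experiment had an unadjusted p under 0.05 in limma, against 109 and 0 without it. With the replicate block the members called were 9 after dexamethasone (Tfeb added, adjusted p = 0.0375) and 0 in the other 3 experiments, and all genes called were 5735 after dexamethasone, 502 for LLC, 152 for age and 0 for the siRNAs.

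Several small differences changed sign, and the cause was not tested. They passed no test, except Bnip3l in dexamethasone minus LLC, as given below. For age, scaling gave Map1lc3a -0.034, Gabarapl1 -0.012, Sqstm1 -0.107, Ulk1 -0.010, Atg7 -0.107 and Tfeb -0.128, and rescaling gave Sqstm1 -0.004, Atg7 -0.040 and Tfeb -0.030. Ulk1 after dexamethasone was -0.035 when scaled. For the siRNAs, scaling gave Gabarapl1 -0.028, Bnip3 -0.031, Bnip3l -0.048, Ulk1 -0.003 and Becn1 -0.053, and rescaling gave Bnip3l -0.016 and Becn1 -0.023. Bnip3l in dexamethasone minus LLC was -0.414 scaled and -0.391 rescaled, and both passed. With 1 library left out the ranges that crossed 0 were, for age, Sqstm1 -0.112 to 0.136, Ulk1 -0.011 to 0.296, Atg7 -0.135 to 0.094 and Tfeb -0.113 to 0.112. For LLC they were Map1lc3a -0.134 to 0.264, Sqstm1 -0.099 to 0.245, Ulk1 -0.035 to 0.295 and Becn1 -0.015 to 0.127. For the siRNAs they were Map1lc3a -0.088 to 0.258, Gabarapl1 -0.302 to 0.279, Bnip3 -0.161 to 0.237, Bnip3l -0.122 to 0.125, Ulk1 -0.123 to 0.212 and Becn1 -0.024 to 0.078, and for dexamethasone minus LLC Bnip3 -0.01 to 0.26, Bnip3l -0.085 to 0.069 and Ulk1 -0.07 to 0.42. Against age they were Ulk1 -0.07 to 0.43 for dexamethasone, and Map1lc3a -0.26 to 0.14, Map1lc3b -0.01 to 0.34, Sqstm1 -0.15 to 0.20 and Ulk1 -0.17 to 0.16 for LLC. Leaving out 1 library with scaling, chosen after the data were seen, gave 0 members after dexamethasone in all 8 fits and 0 to 3 for LLC.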
